A study of Mus musculus with 70 samples.

Results

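Voltage-gated and potassium channel genes are the 131 autosomal protein-coding genes of the mouse whose symbols start with Kcn, with Scn and a digit, or with Cacn. They comprise 92 Kcn, 14 Scn and 25 Cacn genes, out of 20807 autosomal protein-coding genes, and the rule that defines them uses the symbol alone. Sodium channels (Scn) carry the fast upstroke of the action potential, calcium channels (Cacn) couple depolarization to secretion, contraction and gene expression, and potassium channels (Kcn) set the resting potential and end the spike. Many pore-forming subunits work with auxiliary subunits that change their trafficking or gating. In developing neurons these channels appear step by step as cells leave the cell cycle and begin to fire, while some members also act in heart, skeletal muscle, bone and glands.

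The promoter contacts of these genes were measured by H3K4me3 PLAC-seq, in which proximity-ligated chromatin is immunoprecipitated for H3K4me3, a mark of promoters. By the study's methods the embryos came from pregnant C57BL/6N mice and their sex was not determined, and each tissue and stage had 2 biological replicates. The tissues at embryonic day (E) 12.5 were the neural tissues forebrain (FB), midbrain (MB), hindbrain (HB) and neural tube (NT) and the non-neural tissues liver (LV), limb (LM) and craniofacial prominence (CF), and FB was also taken each day from E13.5 to E16.5 and at P0, the day of birth. CTCF ChIP-seq was made in the same 12 tissue-stages, with technical instead of biological replicates in LV E12.5 and FB E14.5 and 1 library in FB P0. A called interaction is a pair of 10-kb bins, 20 to 1000 kb apart, whose observed read pairs were at least 2 times the number expected at a false discovery rate (FDR) below 1%, and an interaction belongs to a gene when one of its ends is a bin holding a transcription start site (TSS) of that gene. Each tissue is a mixture of cells, so fewer cells with a contact and fewer contacts per cell cannot be told apart.

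The 24 replicate libraries held 11396 to 63868 interactions, and a gene's number in a library was scaled to a total of 25872 (the scaled number). Library totals ran from 16075 to 33700 in the neural and from 11396 to 20775 in the non-neural libraries at E12.5. They ran from 35291 to 63868 in FB at E16.5 and P0, against 16075 to 30876 in FB at E12.5 and E13.5, without overlap. Summed scaled numbers of 7 nervous system marker genes were 14.5 to 55.3 in the neural and 0 to 7.2 in the non-neural libraries at E12.5, and 60 to 105.5 in FB at E16.5 and P0, against 14.5 to 49.4 in FB at E12.5 and E13.5. In LV, 4 hepatocyte marker genes summed to only 1.7 and 6.8 and 3 blood marker genes to 3.4 and 11.4. The part of library size and of cell composition in the differences below was not tested.

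The channel genes had 287 of the 35186 promoter bins, and no bin was shared by a pair of channel genes. For 12 of them, a TSS bin also held the TSS of another gene, and then the contacts of both genes cannot be told apart. CTCF is a DNA-binding protein found at the ends of many chromatin loops, and its motif has a direction. A motif of 19 bp was estimated from the FB E12.5 peaks, and the sites printed here lie under CTCF peaks that were called in all 12 tissue-stages, in a TSS bin of the gene named. They belong to the 5 channel genes whose numbers did not overlap between neural and non-neural libraries, to Kcnj2, the one gene that was lower in neural tissues, and to 3 sodium channel pore genes shown because they had few interactions despite such a peak. For each gene the best-scoring motif is given, 5′ to 3′ on the motif's strand, with the motif in capitals and 3 flanking bases on each side in lower case.
Kcnab2: gcaCCACCAGTAGGGGGCACCAcca
Kcnj11: ctgTGGCCAGCAGGTGGCACCAtaa
Kcnk9: tcgGCGCCACCAGGGGGCGCTAgac
Kcnc1: gccCCGCCACAAGATGGCAGTCcaa
Cacna2d4: tggTGGCCAGAAGAGGGCGGTGgat
Kcnj2: actTGGCCCCTAGGAGGTGCTGgtg
Scn1a: atgTAGCCACTAGATGGCACTGtaa
Scn2a: taaCTGCCACTAGAGGGCTGGGaac
Scn3a: tgtCTGCCAGTAGATGGCAGTAaca

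In mm10 (GRCm38), the Kcnab2 motif is at chr4:152432516-152432534 on the minus strand in an intron, and its peak had a CTCF fold enrichment over input of 13.2 to 48.9. It pointed to the side that held 67 of the 73 distinct pooled partners of Kcnab2. Kcnab2 had 2 more motifs under peaks of all 12 tissue-stages, of which the one on the plus strand pointed to the side of 6 partners. The Kcnj11 motif (chr7:46096270-46096288, plus strand, intron, fold 13.7 to 40.5) pointed to the side of all 46 Kcnj11 partners. The Kcnk9 motif (chr15:72549568-72549586, plus strand, intergenic, fold 24.6 to 40.1) pointed to the side of 29 of 37 partners. The Kcnc1 motif (chr7:46393321-46393339, plus strand, intergenic, fold 14.6 to 58.7) pointed to the side of 20 of 24, whereas 2 more Kcnc1 motifs under peaks of all 12 tissue-stages, both on the minus strand, pointed to the side of 4.

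The direction was not the same for every gene. The Cacna2d4 motif (chr6:119246265-119246283, plus strand, intron, fold 5 to 10.3) pointed to the side of 9 of 29 partners. The low-scoring Kcnj2 motif (chr11:111064811-111064829, minus strand, intergenic, fold 7.3 to 26.7) pointed to the side of 37 of 57. These counts are a description with no test, and partners in neighbouring bins are not independent of each other.

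CTCF peaks also lay at some sodium channel promoters with few contacts. The Scn3a motif (chr2:65567578-65567596, minus strand, in an exon, fold 21.5 to 42.1) lay 40 bp from a TSS of a gene with 9 distinct partners. The Scn1a motif (chr2:66410175-66410193, minus strand, intron, fold 15.6 to 41.7) belonged to a gene with 5 partners. The Scn2a motif (chr2:65668582-65668600, minus strand, intron, fold 10.3 to 36.9) belonged to a gene with 14 partners. These genes were picked for that pattern, and it is given as a description.

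Over the 12 tissue-stages, 59.8 ± 5.93% of the channel genes (mean ± SD, n = 12) had a CTCF peak in a TSS bin, and 52.7 ± 4.05% of all genes did. Genes differ in their number of TSS bins, and these shares were not adjusted for it. The peak was there in all 12 tissue-stages for 50 channel genes, in none for 30 and in some for 51. A peak lay in 35.2 ± 3.46% of promoter bins, and the motif was found in 80.8% of 1443 FB E12.5 peaks in promoter bins. At the interactions of channel genes, the promoter end held a CTCF peak in 70.6 ± 5.47% (other promoter interactions, 71.9 ± 4.86%) and the other end in 49.5 ± 4.03% (other promoter interactions, 41.2 ± 3.25%). Here the other promoter interactions left out those with promoter bins at both ends, whereas the channel gene interactions kept them. For channel genes the far end was itself a promoter bin in a median of 28.3% of interactions (22.6% in LM to 39.3% in LV). The far-end shares therefore cannot be set against each other. The difference at the promoter end was not larger than either SD, and neither difference was tested.

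In the pooled calls, where the reads of both replicates were joined and downsampled, 123 of the 131 channel genes (93.9%) had at least 1 interaction in some tissue-stage, against 76.1% of all genes. The median number summed over the 12 tissue-stages was 24 for channel genes and 11 for all genes. A gene's number covers all its TSS bins and was not divided by them. Among genes with many interactions, Cacna1c has 8 TSS bins, Kcnma1 7, Cacna1e 6 and Kcnab2 6, but Kcnj2 has 1. The part of TSS bins in these levels and in the ranking below was not tested. The 8 without an interaction were Cacna1b, the pore of the neuronal N-type calcium channel, Kcnj15, Kcnmb1, Kcnn4, Kcnt2, Scn4a, the skeletal muscle sodium channel, Scn7a and Scn10a. By contrast, 26 genes had an interaction in all 12 tissue-stages, among them Cacna1a, Cacna1c, Cacna1e, Kcnj2 and Kcnma1.

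The 10 genes with the most interactions held 32.4% of the channel genes' 6686. They were Cacna1c (310, the pore of an L-type calcium channel), Cacna1e (275, R-type), Kcnab2 (232, a cytoplasmic beta subunit of Kv channels), Kcnma1 (231, the large-conductance calcium-activated channel), Kcnn2 (207, a small-conductance calcium-activated channel), Kcnj2 (206, an inward rectifier), Cacna1i (190) and Cacna1g (180), both T-type pores, Kcnk4 (169, a leak channel gated by stretch and lipids) and Kcnj11 (168, the pore of the ATP-sensitive channel). The heaviest group was the Cacna1 pores, with 1283 interactions over 9 genes. The 10 sodium channel pore genes had 178, and the 4 sodium channel beta subunit genes 29.

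**Figure D1:**
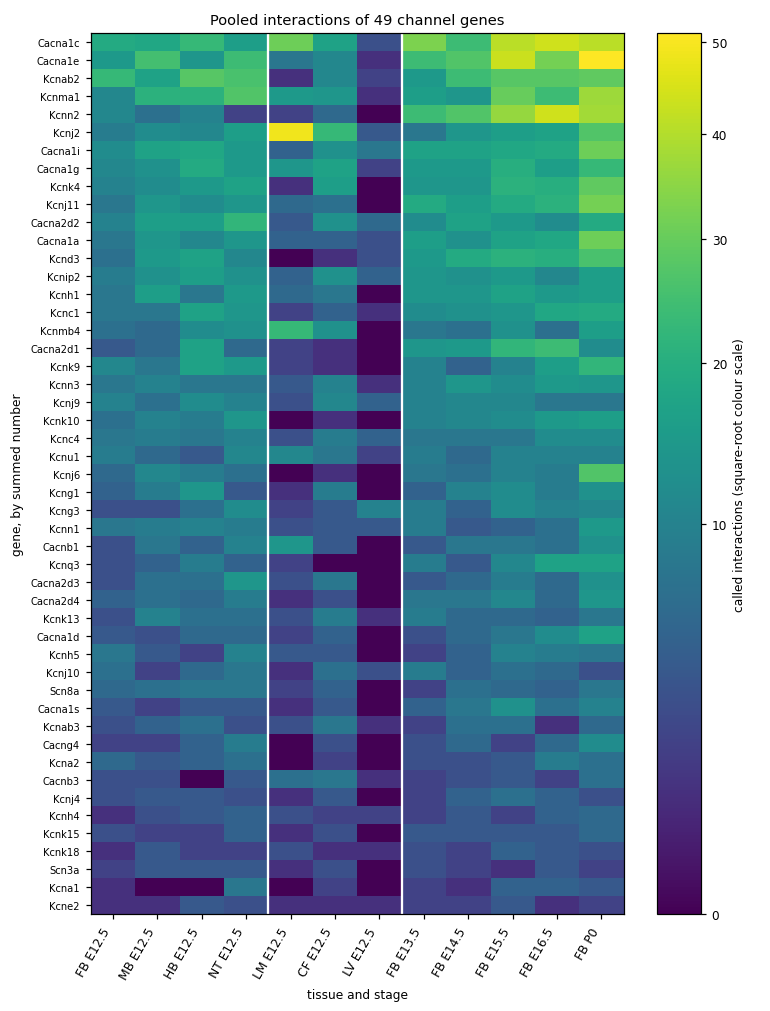
Number of called interactions in the pooled calls (colour, square-root scale) of 49 channel genes with a mean scaled number of at least 1 (rows, by summed number) in the 12 tissue-stages (columns; white lines part the neural tissues, the non-neural tissues and the later FB stages). Cacna1c, at the top with 310, had interactions in every column, whereas Kcnn2 had 44 in FB E16.5 and 0 in LV.

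Channel genes took a larger share of all pooled interactions in neural than in non-neural tissues, and the share was larger still in FB at later stages. At E12.5 it was 0.772% in FB, 0.874% in MB, 0.937% in HB and 0.849% in NT, against 0.578% in LM, 0.687% in CF and 0.415% in LV. In FB the share at E13.5 was 0.946%. It was 0.977% at E14.5, while E15.5 had 1.15% and FB of E16.5 had 1.16%. The share was 1.34% at P0. Per library, the 8 neural libraries had shares of 0.679 to 1.01% and the 6 non-neural libraries 0.333 to 0.643%, with no overlap. Both FB P0 libraries, at 1.44 and 1.51%, lay above every other library.

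Interactions of channel genes were somewhat shorter than other promoter interactions, with a lower ratio of observed to expected read pairs, in most tissue-stages. Their median distance was 230 kb (median over tissue-stages, 200 to 280 kb) and that of other promoter interactions 285 kb (180 to 300 kb). The median distance was shorter for channel genes in 10 of 12 tissue-stages, equal in LM and longer in LV, and its mean over tissue-stages was 232 ± 20.2 kb for channel genes and 276 ± 31.8 kb for other promoter interactions (SD, n = 12). The median ratio of observed to expected read pairs was 3.27 for channel genes and 3.42 for other promoter interactions, and it was lower for channel genes in 11 of 12. Neither difference was tested. Seen from the channel gene end, the other end was itself a promoter bin in 28.3% of interactions (22.6% in LM to 39.3% in LV). Of other promoter interactions, 21.3% (20.1 to 26.1%) had promoter bins at both ends. The first share is counted from a given promoter end and the second per interaction, so they cannot be set against each other.

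Some contacts recurred in nearly every tissue. Cacna1c (chr6:118587240-119196418) reached a bin 470 kb downstream, within its own body (chr6:118630001-118640000), in all 12 tissue-stages, with observed/expected ratios of 2.82 to 8.47. Cacna1e (chr1:154390731-154884501) met a bin 440 kb downstream (chr1:154280001-154290000) in all 12, at ratios of 6.58 to 15.2. The Cacna1i TSS bin reached a bin 410 kb downstream (chr15:80690001-80700000) in all 12, at ratios of 5.66 to 17.7. Other contacts were shared by nearly all tissues except liver, such as the adjacent Kcnma1 partners 410 to 440 kb downstream, which were called in 11 tissue-stages. Of the 73 partners of Kcnab2, 51 were promoter bins, including those of Rpl22, Rnf207, Acot7 and Chd5. Partners of Kcnj11, all upstream, included the TSS bins of Abcc8, whose product is the regulatory subunit of the Kcnj11 channel, 70 to 90 kb away. A TSS bin of Kcnj11 also holds a TSS of Abcc8.

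Neural and non-neural tissues at E12.5 were compared to see whether channel gene promoters had more called interactions in tissues that form neurons. Among the 50 channel genes with a mean scaled number of at least 1 (of 131), 33 (66%) were higher in neural tissues, and 1, Kcnj2, was lower, by limma at a Benjamini-Hochberg adjusted p below 0.05. Over all 5501 genes tested, 24.7% were higher and 15.9% lower. The filter is on the mean of all 24 libraries, so a gene can pass it through the group in which it is high. A pair of bins was eligible in a tissue only if at least 1 end had an H3K4me3 peak of that tissue. A promoter without such a peak has few eligible pairs, so a low number or 0 does not show that contacts are absent. For comparisons across tissues the paper joined the peaks of all tissues. The part of peak presence in this and the later comparisons was not tested. The median log2 difference, neural minus non-neural, was 0.99 for the channel genes and 0.12 for all genes tested. Setting genes with no call in one of the groups to a floor of 3 calls over that group gave medians of 0.81 and 0.08. With TMM scaling the median of all genes moved by 0.21, and 79.5% of all called genes were higher, against 60.8% in the main fit.

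**Figure D2:**
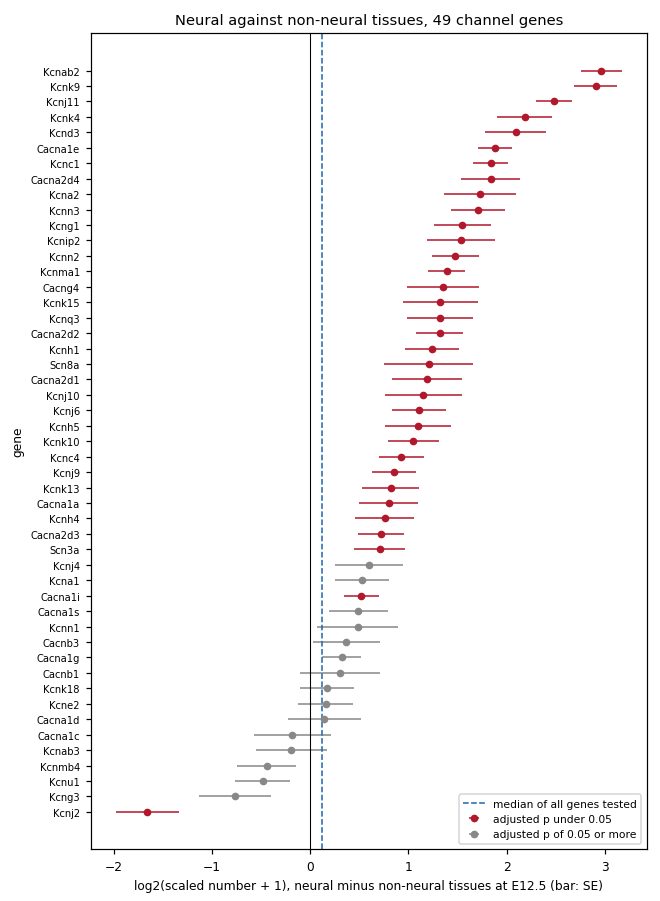
Difference in log2(scaled number + 1), neural minus non-neural tissues at E12.5 (x axis; points, fitted difference; bars, SE), for 49 of the 50 tested channel genes (y axis). Most points lie to the right of the dashed line at 0.12, the median of all genes tested, and Kcnj2, at -1.66, is the only red point on the left.

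Among the potassium channel genes, Kcnab2 had the smallest adjusted p. Its scaled number was 4.71 to 16.1 (median 11.1) in the 8 neural libraries, against 0 to 2.73 (median 0) in the 6 non-neural libraries. No neural library was below any non-neural one, and 4 of the 6 non-neural libraries were at 0. Neural libraries averaged 10.9 ± 3.81 and non-neural libraries 0.694 ± 1.15 (SD), a log2 difference of 2.96 ± 0.21 (SE, adjusted p = 2.61e-10). In the pooled calls Kcnab2 had 17 to 28 interactions in the neural tissues at E12.5, against 1 in LM, 11 in CF and 2 in LV. A TSS bin of Kcnab2 is shared with Nphp4. The fast-repolarizing Kv pore gene Kcnc1 was the most even across neural libraries, at 7.58 to 9.84 (median 8.5), against 0 to 5.17 (median 2.57) in non-neural libraries. Both LM libraries were at 0 for Kcnc1, and its log2 difference was 1.84 ± 0.18 (SE, adjusted p = 4.69e-08). The A-type pore gene Kcnd3 had 0 to 7.68 (median 3.99) in neural libraries and 0 in every non-neural library (adjusted p = 1.49e-05). Kcna2, a low-threshold Kv pore gene, had 0 to 6.5 (median 2.43) in neural libraries and was likewise at 0 in every non-neural library (adjusted p = 0.00071). For genes at 0 in 1 group the fitted difference depends on the pseudocount of 1 and is not given. In the pooled calls Kcnd3 had 7 to 17 interactions in the neural tissues at E12.5, against 0 in LM, 1 in CF and 3 in LV. Kcna2 had 4 to 7 in the neural tissues, against 0 in LM, 2 in CF and 0 in LV.

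Leak channels of the Kcnk family were higher in 5 of 6 tested cases (24.7% over all genes). The counts by subfamily given here are descriptions with no test between subfamilies. Kcnk9, an acid-sensitive leak channel gene, had 6.44 to 11.4 (median 6.96) in neural libraries, against 0 to 1.36 (median 0) in non-neural libraries, where a single CF library was above 0. Its log2 difference was 2.91 ± 0.22 (SE, adjusted p = 9.02e-10). Kcnk4 had 3.22 to 17.1 (median 6.11) in neural and 0 to 4.09 (median 0) in non-neural libraries (log2 difference 2.18 ± 0.28, SE, adjusted p = 2.18e-06). The Kcnk4 TSS bins also hold Catsperz, Esrra and Gpr137. In pooled calls Kcnk9 and Kcnk4 differed within the non-neural tissues, as Kcnk4 had 16 interactions in CF and 1 in LM, whereas Kcnk9 had 1 in CF and 2 in LM.

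Inward rectifiers went both ways. Kcnj11 had 4.22 to 9.75 (median 7.43) in neural libraries, against 0 to 1.44 (median 0) in non-neural libraries, with no overlap (log2 difference 2.48 ± 0.18, SE, adjusted p = 6.95e-10). In the pooled calls the groups were closer. Kcnj11 there had 8 interactions in FB, 14 in MB, 12 in HB and 14 in NT, against 6 in LM, 7 in CF and 0 in LV. Kcnj10, the inward rectifier of astrocytes, had 0.813 to 6.44 (median 2.02) in neural and 0 to 4.54 (median 0) in non-neural libraries (log2 difference 1.15 ± 0.39, SE, adjusted p = 0.0237). The G protein-gated rectifier genes Kcnj6 (log2 difference 1.11, adjusted p = 0.00277) and Kcnj9 (0.85, adjusted p = 0.00416) were higher as well. In all, 4 of the 6 tested Kcnj genes were higher, against 24.7% over all genes. Kcnj4 did not pass the test, and Kcnj2 was lower.

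Kcnj2 (chr11:111066164-111076821), an inward rectifier of muscle and neurons whose human mutations also alter the face and digits, had 0 to 10.6 (median 5.25) in neural libraries, against 4.54 to 39.4 (median 15.4) in non-neural libraries. The non-neural libraries were themselves far apart, with 39.4 and 33.6 in LM, 15.8 and 15 in CF, and 10.3 and 4.54 in LV, so that LM and CF lay above all neural libraries and LV did not. Neural libraries averaged 5.35 ± 3.1 and non-neural libraries 19.8 ± 13.7 (SD), a log2 difference of -1.66 ± 0.32 (SE, adjusted p = 2.64e-04). In the pooled calls Kcnj2 had 9 interactions in FB, 12 in MB, 11 in HB and 16 in NT, against 49 in LM, 23 in CF and 4 in LV. Of 52 distinct Kcnj2 interactions at E12.5, 2 were called only in neural and 25 only in non-neural tissues. A bin 490 kb upstream (chr11:110570001-110580000) was called in all 12 tissue-stages. Contacts within 300 kb numbered 9 in LM and at most 2 in any of the other tissues at E12.5. Sox9, a regulator of cartilage on the same chromosome, starts 1716 kb from Kcnj2, which is beyond the distance over which calls were made.

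**Figure D3:**
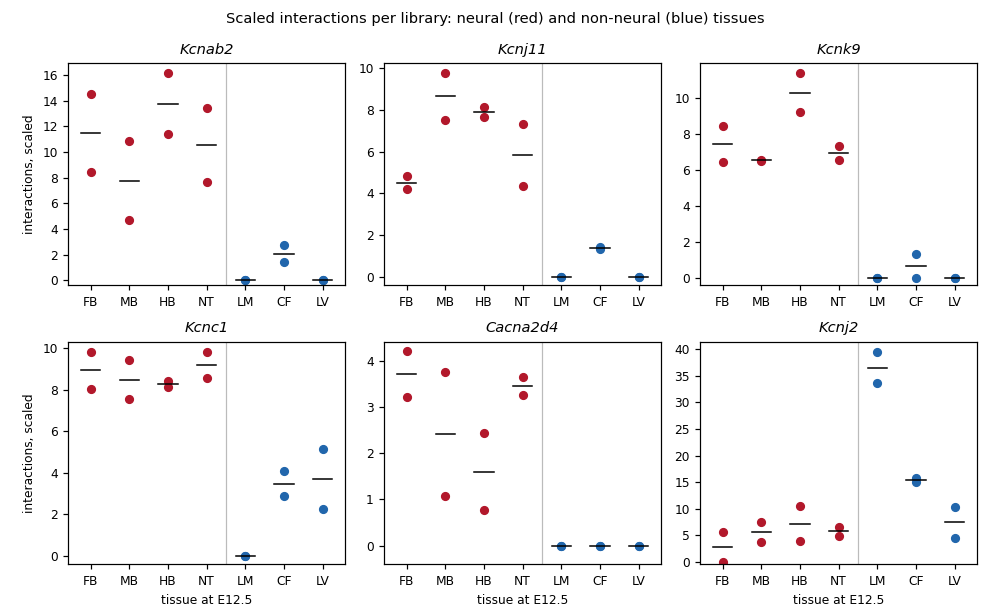
Scaled number of interactions (y axis) in each library (points) of the 7 tissues at E12.5 (x axis; neural tissues in red, non-neural tissues in blue; lines, mean of 2 libraries) for 6 channel genes. Kcnab2, Kcnj11, Kcnk9, Kcnc1 and Cacna2d4 are higher in every neural library, and Kcnj2 reaches 39.4 and 33.6 in limb.

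**Figure D4:**
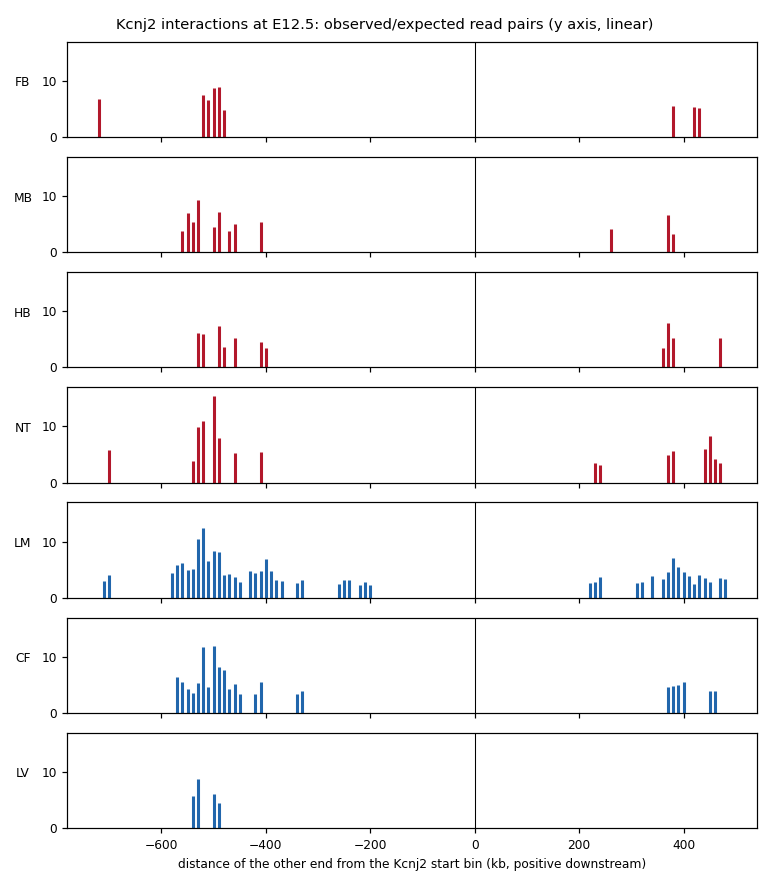
Pooled Kcnj2 interactions at E12.5 by the distance of the partner bin from the TSS bin (x axis, kb, negative upstream), with 1 panel per tissue (neural in red, non-neural in blue) and the observed/expected ratio as the height of each bar (y axis). LM has 49 partners, 31 upstream and 18 downstream, and 9 of them lie within 300 kb, where no other tissue has more than 2.

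Of the 4 tested calcium-activated channel genes (Kcnma1, Kcnn1, Kcnn2 and Kcnn3), 3 were higher, against 24.7% over all genes. Kcnma1 had 4.22 to 21.8 (median 13.4) in neural and 0 to 12.5 (median 7.68) in non-neural libraries (log2 difference 1.39 ± 0.19, SE, adjusted p = 5.1e-06). Kcnn2 was at 0 in every non-neural library and at 0 to 4.22 (median 2.02) in neural libraries (adjusted p = 3.87e-05). In the pooled calls Kcnn2 had 11 interactions in FB, 7 in MB, 10 in HB and 2 in NT. The non-neural tissues had 2 in LM, 6 in CF and 0 in LV, so 0 in a library does not mean that contacts are absent. Kcnn3 had 1.53 to 4.88 (median 3.47) in neural and 0 to 1.72 (median 0) in non-neural libraries (adjusted p = 4.06e-05). The 3 tested Kcnh genes, of the ether-a-go-go family, were also higher. Of these, Kcnh4 was not firm, as it kept its call in 6 alternatives and lost it in 17. Kcnh5 lost its call in 5 and Kcnh1 in 3. Kcnq3, a subunit of the M channel that damps repetitive firing, was the single tested Kcnq gene. It was higher as well and was at 0 in every non-neural library (adjusted p = 0.00326). In the pooled calls Kcnq3 had 3 to 9 interactions in the neural tissues at E12.5, against 2 in LM, 0 in CF and 0 in LV. Kcng1, a subunit that is silent alone and modifies other Kv pores, was higher (log2 difference 1.55 ± 0.29, SE, adjusted p = 2.22e-04).

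The related silent subunit gene Kcng3 did not pass the test (log2 difference -0.77 ± 0.37, SE, adjusted p = 0.101). It had 15.5 and 18.2 in the LV libraries, against 0 to 4.09 in the other 12 libraries at E12.5. On the scaled numbers LV was thus the highest of the 7 tissues for Kcng3, but in the pooled calls NT was above it. Scaling to 25872 raised the LV numbers, as the LV libraries held 15016 and 11396 interactions. In the pooled calls, Kcng3 had 3 interactions in FB, 3 in MB, 7 in HB and 12 in NT, against 2 in LM, 4 in CF and 10 in LV.

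All 4 auxiliary Cacna2d genes, whose products carry the pore to the surface, were higher in neural tissues (24.7% over all genes). So were 3 of 7 tested pore genes and Cacng4, the only Cacng gene tested (adjusted p = 0.00571), against 0 of 2 tested Cacnb genes (unadjusted p was below 0.05 for neither, and edgeR called neither). Cacna2d4 had 0.768 to 4.22 (median 3.25) in neural libraries and 0 in every non-neural library (adjusted p = 4.03e-05), and a TSS bin of it is shared with Lrtm2. In the pooled calls Cacna2d4 had 5 to 9 interactions in the neural tissues at E12.5, against 1 in LM, 3 in CF and 0 in LV. Cacna2d2 had 3.22 to 11.3 (median 7.72) in neural libraries, against 0 to 5.75 (median 2.86) in non-neural libraries (log2 difference 1.32 ± 0.24, SE, adjusted p = 1.60e-04). Among the pores, Cacna1e had 4.89 to 14.1 (median 8.45) in neural and 0 to 5.75 (median 2.28) in non-neural libraries (log2 difference 1.88 ± 0.18, SE, adjusted p = 3.05e-08). The P/Q-type pore gene Cacna1a was higher by less (log2 difference 0.80 ± 0.30, SE, adjusted p = 0.039). The T-type pore gene Cacna1i was higher (log2 difference 0.52 ± 0.18, SE, adjusted p = 0.0251). Cacna1c (log2 difference -0.18 ± 0.39, SE, adjusted p = 0.737) and Cacna1g (0.32 ± 0.20, SE, adjusted p = 0.207), did not pass the test. Cacna1c had 16 to 23 pooled interactions in the neural tissues at E12.5, against 31 in LM, 17 in CF and 3 in LV.

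Sodium channel genes were mostly too sparse to test. Of the 10 pore genes, Scn3a, the embryonic brain form, and Scn8a, a form of the nodes of Ranvier, passed the filter. Scn3a had 1.41 to 4.33 (median 2.37) in neural and 0 to 2.87 (median 1.66) in non-neural libraries (log2 difference 0.71 ± 0.26, SE, adjusted p = 0.0331). Scn8a had 0 to 6.44 (median 2.1) in neural and 0 to 1.36 (median 0) in non-neural libraries (log2 difference 1.21 ± 0.46, SE, adjusted p = 0.0395). These calls, like that of Cacna1a, were not firm, as Scn8a lost its call in 14, Scn3a in 11 and Cacna1a in 13 of 23 alternatives that tested them. Over the 12 pooled sets, Scn2a had 17 interactions, the sensory neuron form Scn9a 13 and Scn1a 6. A low number does not show that contacts are absent, since a pair of bins without an H3K4me3 peak at either end was not eligible for a call.

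Numbers without overlap between the groups were found for 5 of the 50 channel genes in the higher direction (Cacna2d4, Kcnab2, Kcnc1, Kcnj11 and Kcnk9), with 3.27% over all genes tested, and for 0 in the lower direction, with 1.42%. Of the 33 channel genes called higher, 4 share a TSS bin with another gene. With tissue means as the units (4 neural against 3 non-neural tissues), 4 channel genes were called, Cacna2d4, Kcnab2, Kcnj11 and Kcnk9, and 142 of all 5501 genes. Thus the larger count refers to the spread between libraries of a tissue and not to the spread between tissues.

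FB at E16.5 and P0 was compared with FB at E12.5 and E13.5 to follow channel genes as the forebrain matured. Of the 50 tested channel genes, 13 (26%) were higher at the later stages, with 9.16% over all genes tested, and 0 were lower, with 6.27% over all genes. One channel gene, Kcnj9, was lower at an unadjusted p below 0.05, and edgeR called 0 lower. The median log2 difference was 0.61 for the channel genes and 0.13 for all genes. TMM scaling moved the median of all genes by 0.14, and 74.2% of all called genes were then higher, against 59.4% in the main fit. Library totals and the nervous system markers moved with this comparison, as given above. A set of 4 forebrain markers went the other way. They summed to 83.4 to 150.3 at E16.5 and P0, against 186.9 to 331.5 at E12.5 and E13.5.

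**Figure D5:**
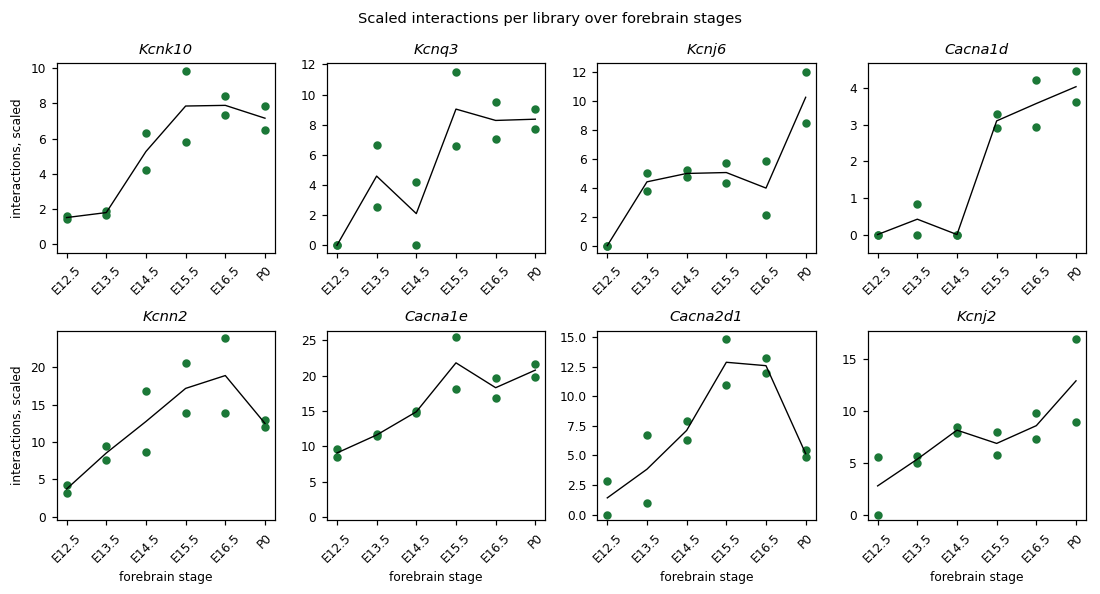
Scaled number of interactions (y axis) in each FB library (points) from E12.5 to P0 (x axis; line, mean of 2 libraries) for the 8 channel genes with the smallest adjusted p between the late and early stages. Kcnk10 has 6.48 to 8.44 at E16.5 and P0, against 1.41 to 1.91 at E12.5 and E13.5.

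Kcnk10, a leak channel gene gated by stretch, lipids and heat, had the smallest adjusted p. Its scaled number was 7.33 and 8.44 at E16.5 and 6.48 and 7.83 at P0, against 1.41 and 1.61 at E12.5 and 1.68 and 1.91 at E13.5. The late libraries were all above the early ones, and at E14.5 (6.32 and 4.21) the number was already between them. The log2 difference was 1.68 ± 0.34 (SE, adjusted p = 0.00212). Kcnq3 had 9.53 and 7.03 at E16.5 and 7.7 and 9.03 at P0, against 0 and 0 at E12.5 and 2.51 and 6.67 at E13.5. These groups do not overlap either, although the second E13.5 library came close to the lowest late one (log2 difference 2.02 ± 0.44, SE, adjusted p = 0.00358).

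Kcnj6 had 5.87 and 2.11 at E16.5 and 8.51 and 12.0 at P0, against 0 and 0 at E12.5 and 5.03 and 3.81 at E13.5. Here the groups overlap, through the second E16.5 library (log2 difference 1.63 ± 0.36, SE, adjusted p = 0.00432). Kcnn2 had 13.9 and 23.9 at E16.5 and 13.0 and 12.0 at P0, against 4.22 and 3.22 at E12.5 and 7.54 and 9.53 at E13.5. Its groups were apart (log2 difference 1.27 ± 0.31, SE, adjusted p = 0.00836), and 38 of its 82 distinct pooled partners were found in FB at E16.5 or P0 but not in FB at E12.5 or E13.5. Genes not called here had such partners too, 21 of 45 for Kcnma1, 16 of 38 for Cacna1i and 3 of 36 for Kcnip2. The pooled sets held 66050 and 79677 interactions at E16.5 and P0, against 51264 and 57174 at E12.5 and E13.5. The count is thus not particular to Kcnn2. Kcnj2, lower in neural tissues at E12.5, was among the genes higher in the late forebrain, with 7.33 and 9.84 at E16.5 and 8.91 and 16.9 at P0, against 5.62 and 0 at E12.5 and 5.03 and 5.72 at E13.5 (log2 difference 1.47 ± 0.42, SE, adjusted p = 0.0194).

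Calcium channel pore genes were called higher in 3 of 7 tested cases, with 9.16% over all genes. Cacna1d, an L-type pore that opens at low voltage, had 2.93 and 4.22 at E16.5 and 4.46 and 3.61 at P0, against 0 and 0 at E12.5 and 0.838 and 0 at E13.5. Its early value above 0 is 1 interaction in 1 library (log2 difference 2.03 ± 0.49, SE, adjusted p = 0.00771). Cacna1e had 16.9 and 19.7 at E16.5 and 19.8 and 21.7 at P0, against 8.43 and 9.66 at E12.5 and 11.7 and 11.4 at E13.5. All late values were above all early ones, and the log2 difference was 0.86 ± 0.23 (SE, adjusted p = 0.0148). Cacna1s, best known as the pore of skeletal muscle, was higher with small numbers, 2.93 and 4.22 at E16.5 and 3.65 and 3.01 at P0, against 1.41 and 0 at E12.5 and 1.68 and 0.953 at E13.5 (adjusted p = 0.0371). The Cacna1s call was not firm, as it was lost in 12 of the 18 alternatives that tested it. A TSS bin of Cacna1s is shared with Ascl5.

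Cacna1c had the largest pooled number in FB at E16.5, 44, jointly with Kcnn2, but missed the threshold. Its scaled numbers were 18.3 and 20.4 at E16.5 and 15 and 20.5 at P0, against 2.81 and 4.83 at E12.5 and 11.7 and 7.62 at E13.5. The groups do not overlap and the log2 difference was 1.47 ± 0.52 (SE, adjusted p = 0.0569). The other called genes were the auxiliary subunit genes Cacna2d1 (log2 difference 1.73 ± 0.47, SE, adjusted p = 0.0154), Kcnab3 (1.55 ± 0.47, adjusted p = 0.0298) and Kcnmb4 (1.27 ± 0.40, adjusted p = 0.0326), the last of these an accessory subunit of the Kcnma1 channel, with Kcnd3 (1.31 ± 0.41, adjusted p = 0.0321) and Cacng4, whose product regulates AMPA receptors (1.52 ± 0.48, adjusted p = 0.0364). The Kcnab3 TSS bins also hold Cntrob and Trappc1. Several of these calls were not firm, as Cacng4 lost its call in 13 of 18 alternatives and Kcnd3 and Kcnmb4 each in 11 of 19. Kcnab3 lost its call in 9 of 19 and Cacna2d1 in 5 of 19. No sodium channel gene was called by limma or by edgeR, and 1, Scn8a, had an unadjusted p below 0.05 (log2 difference 1.34 ± 0.60, SE, adjusted p = 0.138).

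Numbers did not overlap between the stage groups, higher at the later stages, for 13 of the 50 channel genes, with 8.63% over all genes tested, and lower for 3, Kcne2, Kcnip2 and Kcnk18, with 8.03%. Without the FB E16.5 replicate 2 library or the FB P0 replicate 2 library 5 of the 13 kept their call, and without FB E13.5 replicate 2 or FB E12.5 replicate 2 it was 6, with 2 and 3 further genes called. Without FB E13.5 replicate 1 it was 8, with 4 further genes, and without FB P0 replicate 1 it was 8, with 1 further gene. Without FB P0, an alternative chosen after the values were seen, 4 of the 50 genes were called, Cacna2d1, Kcnk10, Kcnn2 and Kcnq3, with 5.09% over all genes tested.

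FB at E12.5 was compared with MB, HB and NT to set the forebrain against the other neural tissues at one age. None of the 50 channel genes was higher in FB, with 1.84% over all genes tested, and 5 (10%) were lower, with 4.47% over all genes. At an unadjusted p below 0.05 1 gene was higher, Kcnn2, and edgeR called 0 higher. The median log2 difference was -0.33 for channel genes and -0.18 for all genes. With genes at 0 in one of the groups set to the floor of 3 calls, the medians were -0.07 and 0.09 (6 channel genes were at 0 in both FB libraries). TMM scaling moved the median of all genes by -0.13, and 16% of all called genes were then higher in FB, against 29.1% in the main fit.

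Kcnma1 had 4.22 and 4.83 in FB, against 12.2 to 21.8 (median 14.2) in the 6 libraries of MB, HB and NT. All of those libraries were above both FB libraries, and the log2 difference was -1.57 ± 0.29 (SE, adjusted p = 0.00183). In the pooled calls Kcnma1 had 11 interactions in FB, against 21 in MB, 21 in HB and 27 in NT. Kcnmb4, which pairs with Kcnma1, was at 0 in both FB libraries, against 0.942 to 8.45 (median 3.4) in the 6 others (adjusted p = 0.00739). Kcnj6 (adjusted p = 0.0129), Kcnab3 (adjusted p = 0.0355) and Kcnq3 (adjusted p = 0.0404) were also at 0 in both FB libraries. The pooled FB calls held 7 interactions of Kcnmb4, 6 of Kcnj6, 3 of Kcnab3 and 3 of Kcnq3, so 0 there means below the threshold in each library. FB at E12.5 had totals of 16075 and 18413, and the others 21181 to 33700. The nervous system markers summed to 22.5 and 14.5 in FB and to 18.4 and 19.8 in MB. In HB they summed to 55.3 and 24.4 and in NT to 38.2 and 53.7. A set of 5 midbrain and hindbrain markers summed to 60.4 and 40.2 in FB, against 72.5 to 123.4 in the others. A set of 4 forebrain markers went the other way, with 279.6 and 331.5 in FB, against 45.2 to 121.3 in the others. The part of these in the result was not tested. Without either FB library only Kcnma1 of the 5 kept its call, and without MB replicate 1, MB replicate 2, HB replicate 1 or NT replicate 2, 3 of the 5 did. Groups were apart for 8 of 50 channel genes in the lower direction, with 7.83% over all genes, and for 1, Kcnn2, in the higher direction, with 6.73%. These 3 comparisons share libraries, as FB at E12.5 is in each of them.

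A list of 36 partner genes of channels, such as scaffolds, regulators and related channels, was read in the same fits, and 15 were tested. In neural tissues 9 were higher, with 24.7% over all genes (median log2 difference of the 15, 0.92, and of all genes 0.12). They included Ank3, which anchors sodium and M channels at the axon initial segment (2.50 ± 0.23, SE, adjusted p = 1.86e-08), Nfasc, an adhesion protein of the same site (2.36 ± 0.27, adjusted p = 3.94e-07), and Abcc8 (2.25 ± 0.21, adjusted p = 2.03e-08), which shares a TSS bin with Kcnj11. In late FB 4 were higher, with 9.16% over all genes, led by Rimbp2, which ties calcium channels to vesicle release (2.27 ± 0.37, SE, adjusted p = 3.00e-04), and Fgf12, which binds sodium channels (2.07 ± 0.36, adjusted p = 6.00e-04), and 1 was lower, with 6.27% over all genes, the lysosomal channel gene Tpcn2 (-1.12 ± 0.37, adjusted p = 0.0414). In FB at E12.5, 2 were lower than in MB, HB and NT, with 4.47% over all genes, Cntn2 (-2.21 ± 0.38, SE, adjusted p = 0.0011) and Rimbp2 (-2.32 ± 0.43, adjusted p = 0.00183).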

How the data were processed

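H3K4me3 PLAC-seq was read as interaction calls of 24 replicate libraries and of 12 pooled tissue-stages. The authors aligned reads to mm10 (tools named in their processing notes: BWA, SAMtools, Juicer and MACS2) and called interactions with MAPS. The deposited values of a called bin pair are the count of read pairs, the expected signal of the fitted model, and an FDR (adjusted p-value) computed by the authors. The authors tested a pair only where at least 1 end had an H3K4me3 peak of that tissue. These peaks and the input libraries were not analysed here. Pooled calls were downsampled by the authors. CTCF peaks carry the authors' fold enrichment over input from MACS2 and overlap peaks of both libraries (FB P0 has 1 library). By their labels, the CTCF libraries of LV E12.5 and of FB E14.5 are technical replicates. A second deposited list of 11 tissue-stages was an alternative.

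Genes are GENCODE M21 on GRCm38. Numbers per gene were scaled to the median library total and tested with R 4.3.3 and limma 3.58.1 (trend option) on log2(scaled number + 1), over all genes with a mean of at least 1, with 1 mean per tissue-stage over all 24 libraries, two-sided, Benjamini-Hochberg adjusted over all genes tested, at 0.05. The self-test on simulated data used the same steps. Alternatives were TMM scaling, edgeR 4.0.16, other filters and pseudocounts, the most 5-prime TSS, tissue means, a fit with the 2 groups alone, a linear trend over stages, a replicate block, and leaving out LV or each library. Motifs of CTCF were searched with a 19-base matrix estimated from 3098 of the 5000 strongest FB E12.5 peaks, at 0.0001 per position, with Python 3.11.15, numpy 2.4.6, pandas 2.3.3 and pysam 0.24.0, and figures were drawn with matplotlib 3.10.9. Named genes are the called genes of each comparison by adjusted p (up to 15 per direction), the 10 with the most pooled interactions and a list of well-known channels. Kcng3, Kcnj9 and the other genes that were listed for small counts were named after their values were seen. Some genes are named in no result and no plot and are not reported here. The gene lists and the channel genes themselves were chosen with earlier results of these data known. The replicate numbers did not pair the libraries (in 21 tissue pairs at E12.5, r was between -0.0654 and 0.0443, and in 15 stage pairs of FB, between -0.0418 and 0.0837). Both PLAC-seq replicates of a tissue are biological by their labels, and p-values measure the spread between such libraries.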

Additional observations from a re-analysis of the deposited data

Results flagged for a closer look

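Of 99 groups of 4 to 8 libraries, 17 held 1 library far from the others by Dixon's test. The test is made for continuous values, and these are small counts. Where the other libraries of a group have no interaction, any interaction in the remaining library is flagged. The 17 of 99 therefore cannot be set against a chance rate, and the libraries are listed as a description. Among the 8 neural libraries at E12.5, HB replicate 1 was high for Cacna2d1 (9.21 scaled interactions, the nearest library 2.81) and for Kcnq3 (6.91, nearest 2.82), Kcnq3 also within MB, HB and NT. NT replicate 2 was high for Kcnh4 (3.66, nearest 2.44) and MB replicate 2 for Cacna2d3 (7.53, nearest 4.37). Among the 6 non-neural libraries, LV replicate 2 was high for Kcnj10 (4.54, nearest 1.44).

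In CF, 1 library stood above the other 5 non-neural libraries, all at 0, for 7 genes. CF replicate 2 had 2.73 for Kcnk15 and 1.36 each for Cacng4, Kcnk9, Scn8a and Kcnj6, and CF replicate 1 had 2.87 for Kcnh5 and 1.44 for Kcnk10. These values are 1 or 2 interactions.

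In FB, E16.5 replicate 2 was high for Kcnn2 (23.9, nearest 13.9), and without this library Kcnn2 lost its call between the late and early stages. E13.5 replicate 1 had 0.838, which is 1 interaction, for both Kcnab3 and Cacna1d, where the other 3 early libraries were at 0. E12.5 replicate 2 was at 0 for Kcnj2, the nearest early library having 5.03.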

How the results depend on the processing

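Shares in brackets are those called over all genes tested in that setting. The neural comparison (34 channel genes called, 40.6%) gave 18 with edgeR (21.2%), 18 with the 2 groups fitted alone (18.5%) and 4 with tissue means (2.58%). It gave 27 to 36 in the other settings (19.2 to 47.8%) and 28 to 35 when each library was left out. The late FB comparison (13, 15.4%) gave 28 with no filter (10.9%), 6 with the 2 groups alone (8.51%) and 0 with tissue means (0 of all genes passed). It gave 4 without FB P0 (5.09%), an alternative chosen after seeing the data. The other settings gave 10 to 19 (13.3 to 22.5%), and leaving out each library gave 5 to 12. With no filter 13315 genes were tested instead of 5501, so its counts are over more channel genes. FB against MB, HB and NT (5, 6.31%) gave 1 with edgeR (1.47%), 3 with no filter (1.95%) and 3 with the most 5-prime TSS (5.49%). It gave 1 with the 2 groups alone (0.982%) and 0 with tissue means (0 of all genes passed). The other settings gave 5 (6.16 to 9.05%), and leaving out each library gave 2 to 5. The tissue means and 2-group fits use fewer units, and their spread includes that between the tissues or stages of a group. The main fit leaves that spread out. The cause of the change in counts was not tested for any setting. No direction reversed. Of the 34 neural calls, those of Kcnj11 and Kcnk9 were kept in all 24 alternatives, those of Cacna2d4 and Kcnab2 in the 23 that tested them, and 30 were lost in at least 1. No call of the other 2 comparisons was kept throughout. With the second list of CTCF peaks, 56.1 ± 5.37% of channel genes and 49 ± 4.14% of all genes had a peak in a TSS bin (SD, n = 11). With a replicate block, 33, 13 and 5 genes were called. Of the 131 channel genes, 81 had a mean below 1 and were left out of the tests. The part of sequencing depth and of H3K4me3 peaks in these low means was not tested.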
